A study of Caenorhabditis elegans with 2 samples.

Results

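The summits described here are the strongest binding positions of the first of 2 ChIP-seq replicates for which the second replicate placed no summit within 100 bp. They were chosen by 2 measured values, the deposited signal value and the distance between summits. Of the 1778 replicate 1 lines with the highest signal values, the 466 with no replicate 2 summit within 100 bp, at any rank, are called unmatched summits below. The other 1312 are called matched summits. The 466 come from 22350 lines of replicate 1 and 52350 lines of the replicate lists together. The assay was ChIP-seq, in which DNA bound by a protein is immunoprecipitated and sequenced, on whole Caenorhabditis elegans larvae of the L3 stage, males and females pooled, of strain OP342, which carries unc-119(ed3) and the transgene wgIs342. The protein mapped was an eGFP fusion of SKN-1, so the maps are of a tagged protein made from a transgene, averaged over all tissues of the animal. Binding in fewer cells and less binding per cell cannot be told apart in such material. The series holds 1 group, with biological replicates 1 and 2 and no second condition, and the age of the animals is given as unknown.

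SKN-1 is the nematode relative of the mammalian Nrf transcription factors. It binds DNA as a monomer at a short sequence, and WDR-23 keeps its level low by directing its degradation. It is known for activating genes of glutathione metabolism, detoxification and the proteasome, and for specifying the endoderm and pharynx lineages in the embryo. In a ChIP-seq list, a summit is the single base where the authors' peak caller placed the top of an enriched interval, so a summit can be shifted while the interval is shared.

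Most of the unmatched summits had an interval that met a line of the full replicate 2 list, which holds background as well as peaks. The share that a list of this length would overlap at other positions is not given here, so the overlap is a description. For 346 of the 466 (74.2%, Wilson 95% interval 70.1 to 78.0%), the interval around the summit overlapped the interval of at least 1 of its 30000 lines. Counting only the 1778 strongest replicate 2 lines, 117 overlapped one (25.1%, 21.4 to 29.2%), against 849 of the matched summits (64.7%). A replicate 2 summit lay within 200 bp of 239 of them (51.3%), within 500 bp of 379 (81.3%) and more than 1000 bp away from 42 (9.01%, 6.74 to 12%). The remaining 120 summits overlapped no replicate 2 line.

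The sequences of some of these positions are shown on the plus strand of ce11 (RefSeq WBcel235 genome), each as the summit base with 50 bases on either side. The first set holds 4 of the strongest unmatched summits that carry the SKN-1 consensus, to show where a match can lie relative to the summit. That consensus is TATCAT or TGTCAT preceded by a pair of bases that are each A or T, searched on both strands, and it is in capitals.

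Intergenic, nearest gene K01H12.4 (chrIV:9719149-9719249): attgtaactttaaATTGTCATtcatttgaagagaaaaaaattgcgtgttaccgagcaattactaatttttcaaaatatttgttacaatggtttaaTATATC
Intron of kin-4 (chrIV:11433749-11433849): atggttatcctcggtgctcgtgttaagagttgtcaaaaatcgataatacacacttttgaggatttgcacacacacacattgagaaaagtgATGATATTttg
Intron of ZK154.6 (chrX:7791886-7791986): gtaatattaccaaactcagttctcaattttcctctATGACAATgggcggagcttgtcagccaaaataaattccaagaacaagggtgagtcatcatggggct
Promoters of dnj-22 and natc-1 (chrV:8462131-8462231): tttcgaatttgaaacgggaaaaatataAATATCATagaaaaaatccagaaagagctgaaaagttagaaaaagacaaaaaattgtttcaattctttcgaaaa

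The kin-4 and ZK154.6 matches lie on the minus strand and the other matches on the plus strand. In the K01H12.4 window a second match is cut off by the window's right edge. The summit base is position 51 of each line. The second set holds the 4 unmatched summits of highest signal value that lack the consensus, which are also the 4 strongest of all. They are like most of these windows in lacking the consensus. They do not stand for the locations, since 43.8% of the unmatched summits lay in promoters and these 4 are intronic or intergenic.

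Intron of F14E5.8 (chrII:8420609-8420709): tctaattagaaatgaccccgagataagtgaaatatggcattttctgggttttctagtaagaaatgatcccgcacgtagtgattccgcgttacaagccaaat
Intergenic, nearest gene R11.4 (chrX:16205919-16206019): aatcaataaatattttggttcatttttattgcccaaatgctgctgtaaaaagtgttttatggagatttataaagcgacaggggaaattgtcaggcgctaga
Intergenic, beside a pair of tRNA genes (chrX:5801353-5801453): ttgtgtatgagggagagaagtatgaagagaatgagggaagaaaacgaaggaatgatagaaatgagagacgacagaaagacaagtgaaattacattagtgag
Intron of ZK470.2 (chrX:4142473-4142573): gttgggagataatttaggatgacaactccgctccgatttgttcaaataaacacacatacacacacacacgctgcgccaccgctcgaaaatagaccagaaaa

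For comparison, 2 of the strongest matched summits with the consensus lie beside the proteasome genes rpt-2 and rpn-1, and both carry it on the minus strand.

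Matched, promoters of aps-1 and rpt-2 (chrV:6017761-6017861): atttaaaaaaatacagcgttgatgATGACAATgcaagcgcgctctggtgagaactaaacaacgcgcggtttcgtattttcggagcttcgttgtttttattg
Matched, promoters of ribo-1 and rpn-1 (chrIV:6910197-6910297): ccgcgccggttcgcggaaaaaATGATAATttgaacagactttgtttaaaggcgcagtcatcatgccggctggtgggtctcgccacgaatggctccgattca

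The values that chose the members are given first, as a description. On the authors' own scale the unmatched summits had signal values between 8.71 and 34.8 (median 10.4), and the matched summits between 8.71 and 236 (median 12.6). The unmatched summits thus sat in the lower part of the top of the list. Only 1 of the first 50 replicate 1 summits was unmatched (2.00%), against 129 of those ranked 501 to 1000 (25.8%, 22.2 to 29.8%) and 105 of those ranked 1501 to 1778 (37.8%, 32.3 to 43.6%). Every one of the 1778 lines stood at the ceiling of the deposited −log10 q, 3.74, so the q-value does not separate unmatched from matched summits. At the rank threshold, rank 1778 had a signal value of 8.7064 and rank 1779 one of 8.7063. At the distance threshold, 53 summits lay 101 to 110 bp from the nearest replicate 2 summit and 58 lay 91 to 100 bp from it, so the boundary runs through a continuous range of distances.

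**Figure D1:**
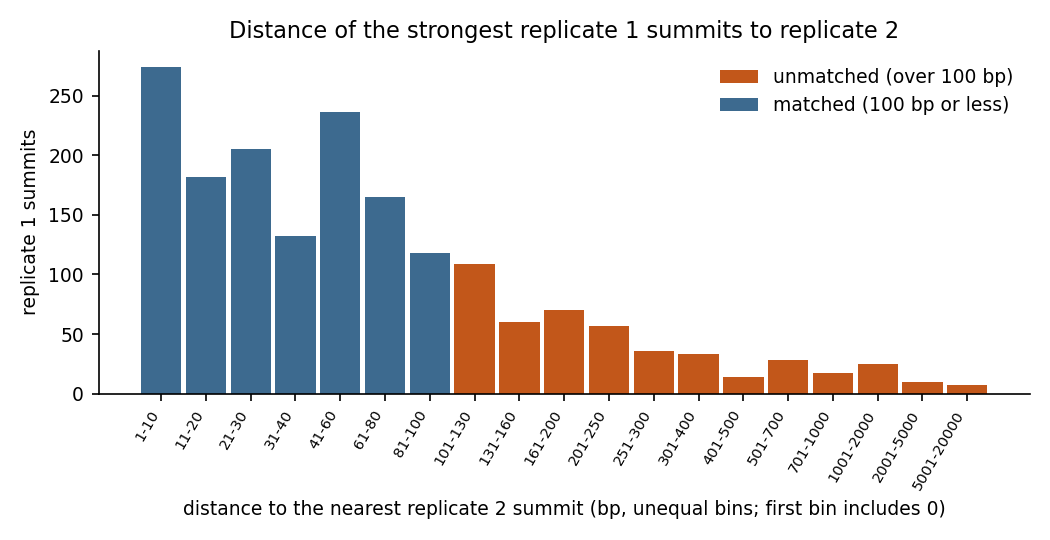
Number of the 1778 strongest replicate 1 summits (vertical axis) by distance in bp to the nearest replicate 2 summit (horizontal axis, bins of unequal width). The counts pass the 100 bp boundary without a gap, with 118 summits at 81 to 100 bp and 109 at 101 to 130 bp.

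**Figure D2:**
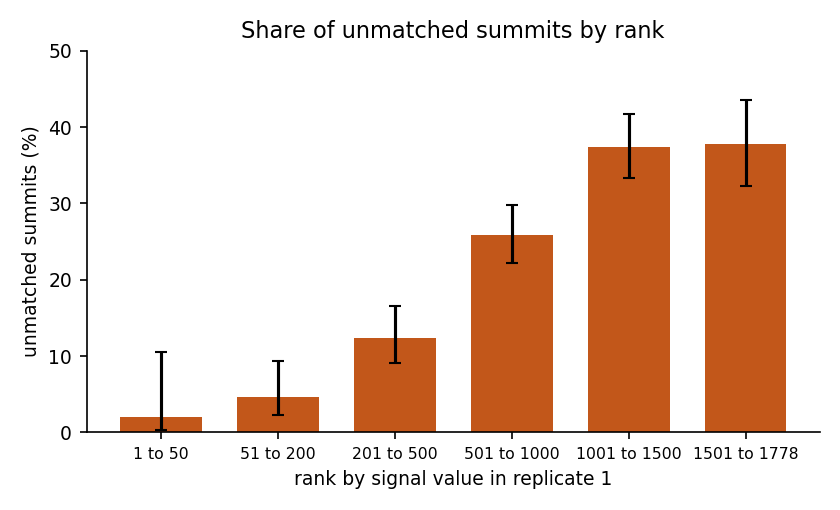
Share of unmatched summits in percent (vertical axis) by rank of signal value in replicate 1 (horizontal axis). Bars are shares and lines are Wilson 95% intervals; the share is 2.00% in ranks 1 to 50 and 37.8% in ranks 1501 to 1778.

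The nearest replicate 2 line was usually a weaker one in its own list. For the unmatched summits its rank had a median of 4864 of 30000, with quartiles of 1548.5 and 12710. For the matched summits the median rank was 1142.5. The nearest replicate 2 line was among the 1778 strongest of replicate 2 for 126 unmatched summits (27%, 23.2 to 31.2%) and for 823 matched summits (62.7%, 60.1 to 65.3%). The 346 overlapping summits had a median nearest rank of 3661 and the 120 without overlap one of 11051.5. In 72 cases (15.5%) the nearest replicate 2 line held a better rank than the replicate 1 line, so in those the replicate 2 list ranked its neighbouring summit higher.

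Summits stood closer together around the unmatched ones, a description that is not independent of the distance rule. Another replicate 1 summit, of any strength, lay within 500 bp of 166 unmatched summits (35.6%, 31.4 to 40.1%) and of 252 matched summits (19.2%, 17.2 to 21.4%). For 98 unmatched summits (21%) the nearest replicate 2 summit had a different replicate 1 summit within 100 bp. In those cases both replicates share a position, and the unmatched summit is a further one in replicate 1. Of the 98, 82 had an interval that overlapped a replicate 2 line, and the others need not lie close to the shared position. Replicate 2 summits lay on both sides within 400 bp for 46 unmatched summits (9.87%). Among the 164 unmatched promoter summits with interval overlap, the replicate 2 summit lay downstream of the replicate 1 summit, on the strand of the nearest gene, in 72 (43.9%, 36.5 to 51.6%), an interval that includes an equal split.

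The pooled list, made from the reads of both replicates, had an interval over nearly all of these sites. It overlapped 456 unmatched summits (97.9%) and all 1312 matched ones. A pooled summit lay within 100 bp of 296 unmatched summits (63.5%) and of 1297 matched summits (98.9%). The IDR-thresholded list, which holds 1778 peaks kept by the irreproducible discovery rate, had a summit within 100 bp of 49 unmatched summits (10.5%, 8.05 to 13.6%) and of 1004 matched summits (76.5%, 74.2 to 78.7%). None of those 49 was among the 120 summits without interval overlap. By interval, the IDR-thresholded list overlapped 123 unmatched summits (26.4%, 22.6 to 30.6%) and 1023 matched summits (78.0%, 75.7 to 80.1%). These lists come from the same reads as the rule, so the shares are descriptions.

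**Figure D3:**
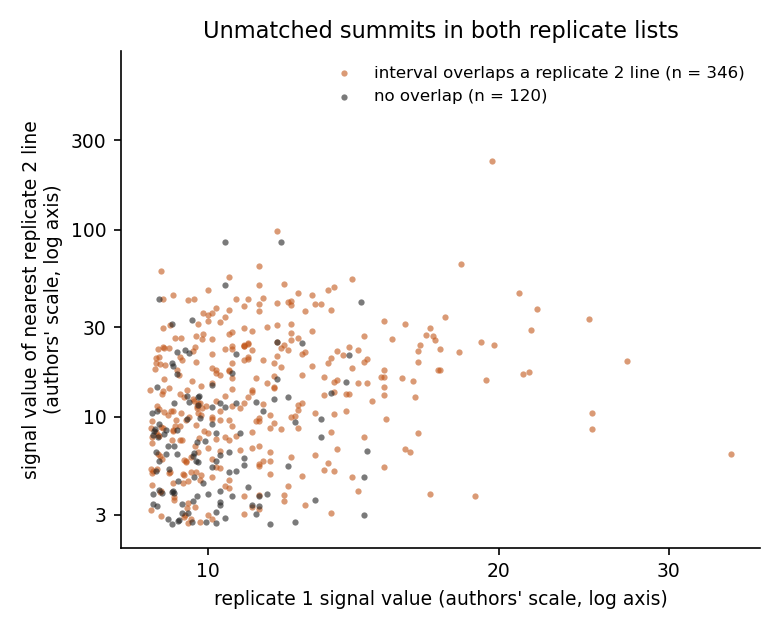
Signal value of each of the 466 unmatched summits in replicate 1 (horizontal, log axis) and of the nearest replicate 2 line (vertical, log axis), both on the authors' scale; the scales of the replicates are not known to be comparable. Points with interval overlap (n = 346) reach a replicate 1 value of 34.8, and those without (n = 120) reach 14.6.

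The 15 strongest unmatched summits all had an interval that overlapped a replicate 2 line. Of these, 7 lay on X, 7 were intergenic, 3 lay in promoters and 1 held the consensus. Each replicate gives 1 value per site, so no SD can be given. The scales of the replicates are not known to be comparable. Matched summits had a median signal value of 12.6 in replicate 1 and 25.1 at the nearest replicate 2 line. A higher value in replicate 2, here and below, therefore does not by itself mean a stronger site there. The strongest lay in an intron of F14E5.8 (II, 8420477 to 8420840, rank 50), with a signal value of 34.8 in replicate 1 and 6.37 at the nearest replicate 2 line, 165 bp away and ranked 11428. The nearest replicate 2 line was thus weak, while the pooled list and the IDR-thresholded list each had a summit 8 bp away, the pooled one with a signal value of 42 at rank 711. Another replicate 1 summit lay 212 bp from the F14E5.8 summit. A summit in an intron of ZK470.2 (X, 4142341 to 4142704, rank 140) had 25 in replicate 1 and 10.5 at the replicate 2 line 262 bp away, ranked 5462.

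Other strong unmatched summits had strong replicate 2 neighbours. A summit in the promoter of eat-16 and the body of ocrl-1 (I, 9722252 to 9722615, rank 191) had 21.9 in replicate 1 and 37.5 at the replicate 2 line 103 bp away, ranked 456. The gene eat-16 encodes a regulator of G protein signalling and ocrl-1 a phosphoinositide phosphatase. A summit in an exon of lgc-40, a ligand-gated ion channel gene (X, 2364613 to 2364976, rank 204), had 21 in replicate 1 and 46.1 at the replicate 2 line 104 bp away, ranked 255. These values sit just outside the 100 bp rule.

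Further sites among the first 15 lie near genes of autophagy, neuronal kinase signalling, heat shock and body patterning. The promoter of lgg-2, an autophagy gene of the LC3 family (IV, 10935930 to 10936293), had 21.5 in replicate 1 and 17.4 at the replicate 2 line 128 bp away. A summit in an intron of cdk-5, a neuronal cyclin-dependent kinase gene, and of kel-3 (III, 13464992 to 13465355) had 21.2 in replicate 1 and 17 at the replicate 2 line 111 bp away. The shared promoter of the small heat shock genes hsp-16.2 and hsp-16.41 (V, 1804769 to 1805132) had 19.2 in replicate 1 and 25 at the replicate 2 line 207 bp away. By rank the order was the other way, 274 in replicate 1 and 1147 in replicate 2. The egl-5 summit of rank 252 had 19.7 and belongs to a replicate 1 line 2653 bp wide (III, 7814339 to 7816991). The nearest replicate 2 summit there, 123 bp away, had a signal value of 232 and ranked 9. The wide line at this Hox gene overlapped a replicate 2 line, and why the summits lie apart was not tested.

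Of the 120 unmatched summits without interval overlap, the strongest was in the promoter of pab-2, which encodes a poly(A)-binding protein (X, 13527366 to 13527729, rank 517). It had 14.6 in replicate 1, and the nearest replicate 2 summit was 541 bp away with 6.57, ranked 10974. The pooled list had a summit 26 bp from it, ranked 4245. The promoter summit of ets-9 and twk-28 (X, 4279977 to 4280340, rank 768), chosen after its values were seen as pab-2 was, had 12.5 in replicate 1 and no replicate 2 summit for 3946 bp. It holds the consensus, and a pooled summit lay 18 bp away at rank 3530.

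The first comparison on a measure the rule did not use asked where the summits lie in genes. Unmatched summits were less often in promoters, defined as 1000 bp upstream to 200 bp downstream of a protein-coding 5′ end, and more often in other exons, both over all summits and among summits outside promoters. Promoters held 204 of 466 unmatched summits (43.8%, 39.3 to 48.3%) and 842 of 1312 matched summits (64.2%, 61.5 to 66.7%). The difference was -20.4 percentage points (95% interval -25.5 to -15.2; Fisher's exact test, two-sided, adjusted p = 3.62e-13 over 13 share tests). Of those 13 tests 5, or 38.5%, had an adjusted p under 0.05. Promoter windows cover 26.1% of the genome, so both sets lay in promoters more often than their share of bases.

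Other exons held 38 unmatched summits (8.15%, 6.0 to 11%) and 28 matched summits (2.13%, 1.48 to 3.07%), a difference of 6.02 points (Fisher's exact test, adjusted p = 2.59e-07). Of the 38, 27 lay outside annotated UTRs. The classes sum to the whole, so the lower promoter share by itself raises the shares of the others. Introns held 93 unmatched summits (20%) and 164 matched summits (12.5%), a difference of 7.46 points (Fisher's exact test, adjusted p = 6.93e-04). Intergenic sequence held 131 (28.1%) and 278 (21.2%), a difference of 6.92 points (Fisher's exact test, adjusted p = 0.00846). Among the 262 unmatched and 470 matched summits outside promoters, a comparison added after the data were seen, other exons held 14.5% and 5.96% (difference 8.55 points, Fisher's exact test, adjusted p = 6.72e-04 over 3 tests). Introns held 35.5% and 34.9% there, a difference of 0.603 points with an interval of -6.49 to 7.88 (Fisher's exact test, adjusted p = 0.872). The intergenic difference turned direction there, with 50% of unmatched and 59.1% of matched summits (-9.15 points, Fisher's exact test, adjusted p = 0.0297). The tests treat summits as independent, which neighbours are not. With 1 summit kept per run of summits less than 1000 bp apart, the promoter difference was -20.7 points, and over 4 strata of replicate 1 rank it was -19.2 points. The intron and intergenic calls were each also lost under 2 other alternatives.

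Positions within promoters were described and not tested. Unmatched promoter summits lay at a median of -212 bp from the nearest 5′ end (quartiles -435 and -61.0), and matched ones at -185 bp (quartiles -322 and -84.2), where a negative value is upstream. More than 500 bp from any 5′ end were 45 unmatched (22.1%, 16.9 to 28.2%) and 110 matched promoter summits (13.1%, 11 to 15.5%). Promoter windows of 2 or more genes held 38 of the 204 unmatched promoter summits (18.6%, 13.9 to 24.5%) and 307 of the 842 matched ones (36.5%, 33.3 to 39.8%). Over all summits, 25.5% of unmatched and 16.8% of matched summits lay more than 2000 bp from any protein-coding 5′ end.

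The 120 summits without interval overlap and the 346 with it, a split chosen after the data were seen, each lay in promoters less often than the matched summits. Promoters held 40 of the 120 (33.3%, 25.5 to 42.2%), a difference of -30.8 points (Fisher's exact test, adjusted p = 8.80e-10). They held 164 of the 346 (47.4%, 42.2 to 52.7%), a difference of -16.8 points (Fisher's exact test, adjusted p = 2.87e-07). The latter adjusted p was the highest over all 13 alternatives, of which the alternative over strata of rank used a Mantel-Haenszel test. Other exons held 16 (13.3%) and 22 (6.36%). In the opposite direction, 464 of the 1778 strongest replicate 2 summits had no replicate 1 summit within 100 bp. Of these 277 were in promoters (59.7%, 55.2 to 64.1%), 19 in other exons (4.09%) and 63 in introns (13.6%), against 884 (67.3%), 18 (1.37%) and 152 (11.6%) of the 1314 matched replicate 2 summits. The promoter share of unmatched summits was therefore 43.8% in replicate 1 and 59.7% in replicate 2, and this difference between replicates was not tested. The 2 directions are not alike, since the replicate 1 list, searched for the replicate 2 summits, is the shorter.

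**Figure D4:**
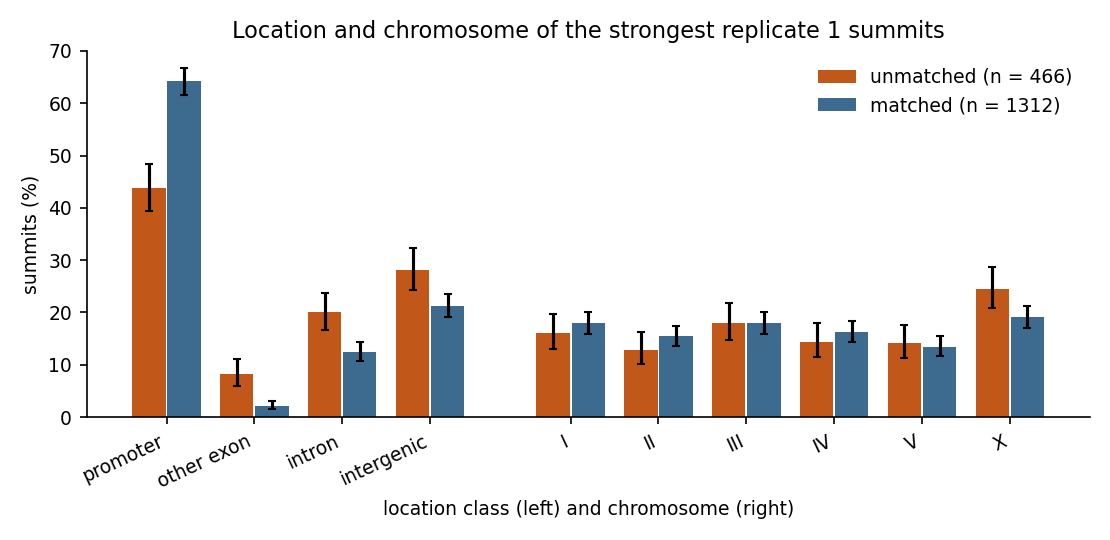
Share of summits in percent (vertical axis) by location class and by chromosome (horizontal axis) for unmatched (n = 466) and matched (n = 1312) replicate 1 summits, with Wilson 95% intervals. Promoters hold 43.8% of unmatched and 64.2% of matched summits, and the X chromosome 24.5% and 19.1%.

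The second comparison asked how the summits are spread over the chromosomes. The X chromosome held 114 unmatched summits (24.5%, 20.8 to 28.6%) and 250 matched summits (19.1%, 17 to 21.3%), a difference of 5.41 points (95% interval 1.11 to 9.99; Fisher's exact test, two-sided, adjusted p = 0.0416). X makes up 17.7% of the nuclear genome. The call on X was lost under 7 of 11 alternatives, in which the difference ran from 2.41 to 7.61 points (adjusted p up to 0.441), and on the ce10 lists it was 4.85 points (Fisher's exact test, adjusted p = 0.187). In the opposite direction, X held 19.2% of unmatched (15.9 to 23%) and 19.3% of matched replicate 2 summits (17.2 to 21.5%). Unmatched summits were densest on X at 6.43 per Mb and on III at 6.09 per Mb, and sparsest on V at 3.15 per Mb. Matched summits were densest on III at 17 per Mb, with 14.1 per Mb on X.

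None of the autosomes passed this test. Chromosome I held 16.1% of unmatched and 17.9% of matched summits, II held 12.9% and 15.5%, III held 18% and 17.9%, IV held 14.4% and 16.2%, and V held 14.2% and 13.4%. The widest of the 95% intervals of these differences, for III, ran from -3.77 to 4.35 points. On the autosomes, the outer 25% at either end held 121 of 352 unmatched summits (34.4%) and 418 of 1062 matched summits (39.4%), a difference of -4.98 points with an interval of -10.6 to 0.885 (Fisher's exact test, adjusted p = 0.186). The lower promoter share was present on X, where 41 of 114 unmatched summits (36.0%) and 130 of 250 matched summits (52.0%) were in promoters. On the autosomes these were 163 of 352 (46.3%) and 712 of 1062 (67.0%), a difference of -20.7 points.

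The third comparison asked for the SKN-1 consensus. Its centre lay within 50 bp of 34 unmatched summits (7.30%, 5.27 to 10%) and of 140 matched summits (10.7%, 9.11 to 12.5%), a difference of -3.37 points with an interval of -6.08 to -0.235 that did not pass the adjusted test (Fisher's exact test, two-sided, adjusted p = 0.0796). It passed under 3 of 13 alternatives, over which it lay between -5.69 and -1.12 points. Stratified by replicate 1 rank, the consensus difference was smaller, at -1.82 points, and was not called. A lower consensus share apart from the lower signal values of the unmatched summits was therefore not shown. In windows of the same length centred 300 bp to the left and right it was found in 4.51% and 3.86% for unmatched summits, and in 7.01% and 6.17% for matched summits. Windows of 101 bp tiling the nuclear genome held it in 5.31% of cases. Among promoter summits, 9 of 204 unmatched (4.41%, 2.34 to 8.17%) and 93 of 842 matched (11%, 9.10 to 13.3%) held the consensus. Among intron summits the order was the other way, with 13 of 93 unmatched (14%, 8.35 to 22.5%) and 10 of 164 matched (6.10%, 3.35 to 10.9%). These splits by location were chosen after the shares were seen and were not tested.

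Where the replicates placed their summits apart, the consensus was about as frequent at the replicate 1 as at the replicate 2 summit. Of the 346 unmatched summits with interval overlap, the consensus lay within 50 bp of the replicate 1 summit only in 23, of the nearest replicate 2 summit only in 24, and of both in 1. Summits over 100 bp apart cannot share 1 consensus site within 50 bp of each, so the low count for both follows from the rule. Of the 1312 matched summits, whose windows can share a site, the counts were 30, 30 and 110. The printed ZK154.6 window shows the first of these cases, with its match starting 15 bases before the replicate 1 summit and the replicate 2 summit 272 bp away.

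**Figure D5:**
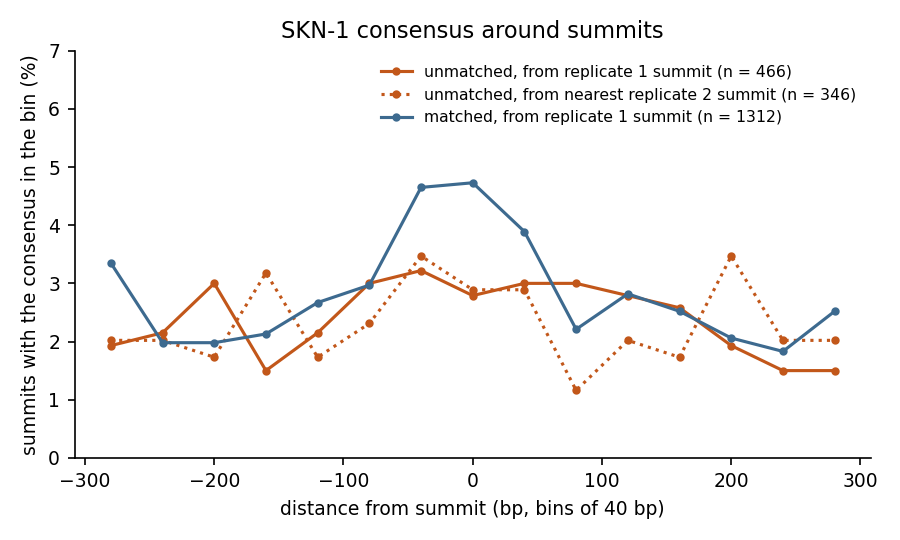
Share of summits in percent with the SKN-1 consensus (vertical axis) in bins of 40 bp by distance from the summit (horizontal axis), for unmatched summits from the replicate 1 summit, for the 346 with interval overlap from the nearest replicate 2 summit, and for matched summits. Matched summits reach 4.73% in the central bin and unmatched summits 2.79% from the replicate 1 summit and 2.89% from the replicate 2 summit.

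Base composition and repeats were described over the same 101 bp windows. The median GC content was 39.6% for unmatched summits (quartiles 32.7 and 46.5%) and 45.5% for matched summits (38.6 and 50.5%). Within promoters the medians were 38.6% and 45.5%, so the lower GC of the unmatched set was also present inside that class. More than 50% of the window was soft-masked as repeat or low-complexity sequence for 85 unmatched summits (18.2%, 15 to 22%) and 110 matched summits (8.38%, 7.0 to 10%). Exact copies elsewhere in the genome were rare. Only 17 unmatched (3.65%) and 57 matched (4.34%) windows held any 30-base word that recurs in the nuclear genome. The part of masked sequence and base composition in the location differences was not tested.

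The fourth comparison asked about gene classes. The unmatched summits fell in promoters of 239 of 19973 protein-coding genes (1.20%) and the matched ones in promoters of 1149 (5.75%), with 27 genes in both. With 1.20% of all genes at an unmatched summit, a count of 0 in a short list is near that share and is no result about the list, and no list was tested. None of 33 proteasome subunit genes had an unmatched promoter summit and 27 had a matched one. None of 20 known SKN-1 targets and none of 27 genes of the glutathione and thioredoxin system had an unmatched summit, and 8 and 6 had a matched one. The gcs-1 promoter, whose gene product catalyses the limiting step in making glutathione, had 32.1 in replicate 1 and 68.6 in replicate 2, at summits 21 bp apart. Its summits ranked 63 in replicate 1 and 86 in replicate 2. The wdr-23 summits ranked 5 in each list, 14 bp apart. The gst-4 promoter summit had 6.64 in replicate 1 and ranked 3170, outside the strongest 1778, and 26.1 in replicate 2. No line of either list lay in a promoter window of skn-1 itself. The best unc-119 line ranked 21332 in replicate 1 and 5027 in replicate 2.

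Among the housekeeping lists, 4 of 80 cytosolic ribosomal protein genes had an unmatched promoter summit (5.0%) and 47 a matched one. The strongest of the 4 were at rpl-10, with 11.7 in replicate 1 and 14.3 at the replicate 2 line 246 bp away, and at rps-3, with 9.78 in replicate 1 and 7.69 at the replicate 2 line 166 bp away. Both windows also belong to other genes, ints-11 and sna-3. The rpl-10 lines ranked 918 in replicate 1 and 3279 in replicate 2. None of 42 translation factor genes and 1 of 46 respiratory chain genes had an unmatched summit, and 11 and 14 had a matched one. The respiratory gene was cyc-1, encoding cytochrome c1, with 13.5 in replicate 1 and 49.4 at the replicate 2 line 106 bp away, ranked 205. Of 21 vacuolar ATPase genes, 2 had an unmatched summit and 5 a matched one. They were vha-12, with 12.9 in replicate 1 and 40.2 at the replicate 2 line 211 bp away, and vha-8, with 9.53 in replicate 1 beside a stronger matched summit of 20.1. Heat shock genes had 2 of 23, the hsp-16 pair described above, and endoplasmic reticulum folding genes had 0 of 20, against 7 of each list with a matched summit.

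Fatty acid metabolism had 4 of 85 genes with an unmatched summit (4.71%) and 3 with a matched one (3.53%). The lists were not tested against each other or against all genes. The gene ech-5, of the enoyl-CoA hydratase family, had 17 in replicate 1 and 29.9 at the replicate 2 line 153 bp away. Those lines ranked 368 in replicate 1 and 773 in replicate 2. The acyl-CoA synthetase gene acs-4 had 11.2 in replicate 1 and 9.51 at the replicate 2 line 122 bp away. Several detoxification and stress lists had 1 gene with an unmatched summit. These were gst-42 of 49 glutathione S-transferases, with 10.9 in replicate 1 and 20.1 at the replicate 2 line 110 bp away, and hif-1, the hypoxia-inducible factor, of 26 stress and insulin regulators, with 11 in replicate 1 and 20.8 at the replicate 2 line 145 bp away. They also include ugt-20 of 67 UDP-glucuronosyltransferases, with 11.3 in replicate 1 and only a replicate 2 line of 3.36 at 1133 bp. The matched counts for these lists were 10, 5 and 2. Autophagy genes had 1 of 32, lgg-2, and 4 matched.

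The large families of chemoreceptors and of F-box and BTB-MATH genes had few summits of either kind. Chemoreceptors had 3 of 1365 with an unmatched summit (0.220%) and 10 with a matched one (0.733%), both below the shares of 1.20% and 5.75% over all genes. The strongest were sru-2, with 10 in replicate 1 and its nearest replicate 2 summit 5495 bp away, and str-3, with 9.83 in replicate 1 and 4.88 at the replicate 2 line 110 bp away. F-box and BTB-MATH genes had 2 of 395 and 10 of 395, led by fbxa-88 with 9.84 in replicate 1 and 10.2 in replicate 2 and by fbxa-4 with 9.35 in replicate 1 and 7.55 in replicate 2. The fbxa-88 lines ranked 1327 in replicate 1 and 5712 in replicate 2. None of 274 nuclear hormone receptors, 175 cuticle collagens, 240 C-type lectins, 82 homeobox genes, 72 histones, 31 aminoacyl-tRNA synthetases, 31 major sperm proteins or 47 germline markers had an unmatched promoter summit, and their matched counts were 12, 4, 2, 3, 3, 2, 1 and 4. Of 17 intestine genes, 1 had an unmatched summit and 2 a matched one. The former was pept-1, the intestinal peptide transporter, with 10.6 in replicate 1 and 23 at the replicate 2 line 107 bp away. The pept-1 lines ranked 1125 in replicate 1 and 1365 in replicate 2. Of 19 muscle genes, 1 had an unmatched summit and 0 a matched one. It was lev-11, which encodes tropomyosin, with 11.3 in replicate 1 and 5.48 at the replicate 2 line 175 bp away. Neither kind of promoter summit was found at 74 cytochrome P450 genes, 8 superoxide dismutases and catalases, 35 neuron markers, 20 hypodermis markers or 6 Hox genes, the egl-5 summit described above lying outside its promoter window.

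A tRNA, snoRNA, snRNA or rRNA gene lay within 200 bp of 35 unmatched summits (7.51%, 5.45 to 10.3%) and 124 matched summits (9.45%, 7.98 to 11.2%), a difference of -1.94 points with an interval of -4.61 to 1.18 (Fisher's exact test, two-sided, adjusted p = 0.318). Of the unmatched summits 19 were near tRNA, 13 near snoRNA and 3 near snRNA genes, and of the matched ones 67, 46 and 11. The strongest unmatched summit of this class lay on X (5801221 to 5801584), beside the tRNA genes WBGene00023050 and WBGene00023051, with 25 in replicate 1 and 8.62 at the replicate 2 line 163 bp away. The next lay beside the tRNA gene WBGene00008104 (X, 16042539 to 16042902), with 18.9 in replicate 1 and 3.79 at a replicate 2 line 105 bp away that ranked 21788. Another lay over the tRNA gene WBGene00014486 (X, 16209620 to 16209983), with 17.6 in replicate 1 and 34.2 at the replicate 2 line 109 bp away. Those lines ranked 342 in replicate 1 and 573 in replicate 2. Recurring 30-base words cover 92.1% of the window of WBGene00014486. The 120 summits without interval overlap had such a gene nearby in 4 cases (3.33%, 1.30 to 8.26%) and the 346 with overlap in 31 (8.96%, 6.38 to 12.4%).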

How the data were processed

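The input was the peak lists that the authors deposited for ce11 and ce10, in narrowPeak format. Per the text deposited with each sample, a replicate list came from that replicate's alignments and a control alignment and holds peaks together with background. The aligner, the peak caller and the threshold on IDR were not given in the sources used here. Each deposited signal value is a score on the authors' scale whose unit is not stated. The deposited lists hold each q-value on a −log10 scale. Read depth is unknown from these lists. Wilson intervals on shares cover counting error only. With 2 replicates of 1 group, no spread between samples of a condition enters the tests.

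Summits were placed from the deposited offset, 1-based on ce11 (WBcel235), whose chromosome lengths all intervals respect (an end reached at most 0.99993 of its chromosome). The gene models were those of Ensembl release 115. No sequence of chromosome I, and none of 1 window over a UTR, is printed. Shares were compared by Fisher's exact test, two-sided, with Benjamini and Hochberg adjustment over 13 tests and Newcombe intervals for differences (Python 3.11.15, SciPy 1.17.1, statsmodels 0.14.6). The alternative over strata of replicate 1 rank used a Mantel-Haenszel test instead. Alternatives changed the match distance, the overlap rule, the number of lines, the promoter length, the build and the strata. The functions were tested on simulated data.

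Named genes are those at the 15 strongest unmatched summits, up to 2 per list of 31 lists, noncoding genes at 3 summits, and always unc-119, wdr-23, gst-4, gcs-1 and skn-1. The members, lists and tests were chosen with earlier results of these data known. No list was tested.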

Additional observations from a re-analysis of the deposited data

How the results depend on the processing

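The number of unmatched summits depends on the distance and on how many lines are taken. It was 843 with a match within 50 bp, 227 within 200 bp, 120 with interval overlap, 174 among the first 1000 lines and 1165 among the first 3000. It was 458 on the ce10 lists. The lower promoter share kept its direction and its call under all 13 alternatives, between -30.8 and -15.6 points, as did the higher exon share under its 14, between 3.77 and 11.2 points. Among summits outside promoters only, added later, the intergenic difference turned to -9.15 points and the intron difference was 0.603 points, in a comparison in which the promoter share plays no part. The X difference was 4.31 points within 200 bp, 6.64 by interval overlap, 4.25 among 1000 lines, 2.41 among 3000 and 4.85 on ce10. It was 7.61 points without the unmatched summits that overlap a replicate 2 line and 4.64 without those that do not, settings added after the data were seen. None of these 7 passed the adjusted test. The consensus difference passed it at 50 bp (-3.95 points), with the replicate 2 list cut to the length of replicate 1 (-3.79) and, added later, on autosomes alone (-4.48). The noncoding difference passed it within 200 bp (-5.71) and among 3000 lines (-4.05). The cause was not tested. Leaving out a replicate gives no value, since the rule needs both. No paired analysis was possible because there is 1 group.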

Other observations

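The unmatched summits rarely formed runs. With a gap of less than 5000 bp they fell into 426 groups, of which 33 held 2 or more and together 73 summits, and no group held more than 3. One group of 3, chosen after its values were seen, spanned 1328 bp between the glucose transporter-like gene fdgt-2 and F14E5.8 on II (8419331 to 8420659), with signal values of 14.1 to 34.8. Others lay by sma-9, a zinc finger gene of body size control (X, 10768435 to 10773052, signal values 9.69 to 14.3), and by let-526, a chromatin remodelling gene (I, 5313155 to 5316336, signal values 9.72 to 13.4).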
